A study of Mus musculus with 144 samples.

Results

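Hectd2, 1500017E21Rik, Rdh18-ps and Mbl2 are 4 mouse genes, of 24421 with a symbol in the deposited tables, whose ratio of RNA in knockout over control liver differed between a table of mice fed ad libitum and a table of mice fed in reverse phase. They were picked by name for that property. In a joint fit of all liver libraries the difference between the feeding schedules in their knockout effect ranked 1, 2, 3 and 5 by p among 13535 genes tested, so those effects are given below as a description and without a test. The gene at rank 4 was Cyp2a4, a steroid hydroxylase, and the gene at rank 6 was the class I histocompatibility gene H2-Q1. The schedule difference of Mbl2, on the log2 scale, was -0.65 ± 0.11 (SE), against -1.34 ± 0.23 for H2-Q1 and 2.49 ± 0.36 for Cyp2a4.

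RNA was sequenced from male C57BL/6J mice on normal chow, either wild-type controls or mice that lost REV-ERBα and REV-ERBβ in hepatocytes as adults, named below the knockout. Whole liver was taken from mice fed ad libitum or fed in reverse phase. Each schedule was sampled at zeitgeber time (ZT, counted in hours from lights on) 1, 4, 7, 10, 13, 16, 19 and 22, in 3 libraries for each genotype at each time, or 48 libraries in all. Endothelial cells and Kupffer cells were isolated from liver at ZT 4, 10, 16 and 22, with 24 libraries for each cell type. Age, the schedule of the mice that gave the isolated cells, and whether the 3 libraries of a group are 3 animals are not in the labels. The p-values therefore measure only how far these libraries spread, which may be technical. The deposited columns call the controls GFP and the knockouts CRE, read here as the vectors delivered, so what was delivered and the genotype cannot be told apart. The deletion is described for adult hepatocytes, so whole liver also holds cells outside its stated target. Neither the promoter that drove the recombinase nor the exons removed is stated in the labels.

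REV-ERBα and REV-ERBβ are nuclear receptors that sit on DNA beside target genes and repress them at a fixed time of day, and they form the repressive arm of the circadian clock. Feeding time is a strong cue for the phase of daily rhythms in liver and can pull them away from the light cycle. In mice, reverse-phase feeding gives food in the rest phase. Hectd2 encodes a HECT-type E3 ubiquitin ligase, an enzyme that attaches ubiquitin to other proteins. 1500017E21Rik, also named Hectd2os, is a noncoding RNA transcribed from the opposite strand at the 3′ end of Hectd2. Rdh18-ps is a pseudogene of the retinol dehydrogenases, which oxidise retinol and related steroids. Mbl2 encodes mannose-binding lectin C, a secreted liver protein that binds sugars on microbes and starts the lectin pathway of complement.

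The positions below are those of the deposited tables, on mm9. Hectd2 (NM_001163471, 4741 bases, chromosome 19, 36629129 to 36695625, plus strand) and 1500017E21Rik (NR_033510, 2657 bases, chromosome 19, 36693908 to 36763969, minus strand) run toward each other and overlap by 1718 bases at their 3′ ends. In the longer GENCODE model of Hectd2, of 4731 exon bases, these shared bases are exonic in both genes. They make up 36.3% of the exon bases of Hectd2 and 64.5% of those of 1500017E21Rik. A shorter Hectd2 model, of 3842 exon bases, shares 825 bases, or 21.5% and 31.0%. The labels do not say that the counting used strand, so reads from the shared stretch cannot be told apart and the values of these genes are not independent. Rdh18-ps (NR_037604, 3644 bases, chromosome 10, 127261272 to 127283621, plus strand) lies within a cluster of retinol dehydrogenase genes. The GENCODE transcript of Rdh18-ps has 953 bases, so its word shares are not those of the 3644 bases counted. Of the 50-base words in that transcript, 66.9% also occur in another gene, 41.7% in Rdh16, so the counts of Rdh18-ps are uncertain. Mbl2 (NM_010776, 1061 bases, chromosome 19, 30307447 to 30314172, plus strand) shared 0% of its 50-base words with other genes.

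**Figure D1:**
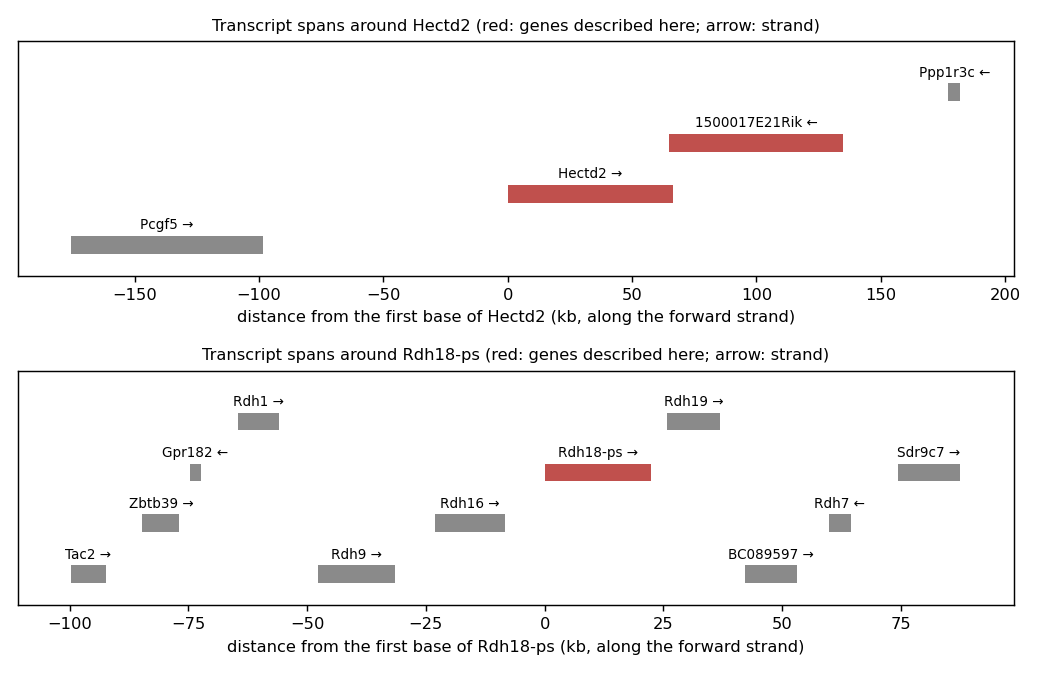
Transcript spans within 100 kb of Hectd2 and 1500017E21Rik (upper panel) and of Rdh18-ps (lower panel), as distance in kb from the first base of Hectd2 or Rdh18-ps, with an arrow for the strand. Hectd2 and 1500017E21Rik meet tail to tail and overlap, and Rdh18-ps stands between Rdh16 and Rdh19.

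Promoters were searched for the motif that nuclear receptors such as REV-ERB bind and for the motifs of clock factors. RefSeq promoter sequence (GRCm38.p6) was matched for Mbl2 and for 1500017E21Rik, and the 250 bases before each start site are shown, 5′ to 3′, because these are the stretches in which the motifs were sought. Capitals mark AGGTCA, the core of the REV-ERB response element. Hectd2 and Rdh18-ps were not matched.
Mbl2, chr19:30232678-30232927, plus strand: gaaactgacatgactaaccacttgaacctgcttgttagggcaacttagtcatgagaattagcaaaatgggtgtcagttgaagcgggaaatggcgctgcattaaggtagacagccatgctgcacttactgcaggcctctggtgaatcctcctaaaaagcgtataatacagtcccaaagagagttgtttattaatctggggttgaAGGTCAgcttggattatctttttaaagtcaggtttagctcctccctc
1500017E21Rik, chr19:36689480-36689729, minus strand: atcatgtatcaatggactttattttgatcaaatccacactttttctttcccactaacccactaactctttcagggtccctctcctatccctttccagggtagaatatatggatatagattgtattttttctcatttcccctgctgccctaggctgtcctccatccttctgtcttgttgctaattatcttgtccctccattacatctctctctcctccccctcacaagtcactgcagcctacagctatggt
The search ran over the 300 bases from 250 before to 50 after the start site, on both strands. Mbl2 held AGGTCA once, with its first base at position -47 from the start site, and neither CACGTG, the E-box of CLOCK and BMAL1, nor TTANGTAA, the D-box. 1500017E21Rik held none of these. Of 32851 promoters of that length, 16.3% held AGGTCA, 7.15% CACGTG and 2.32% TTANGTAA, so a match in 1 gene is no more than a description.

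Liver libraries held 4567612 to 10364901 counts in the ad libitum table and 13117814 to 26191933 in the reverse-phase one, so low genes are measured more precisely in the second table. The endothelial and Kupffer values were deposited after quantile normalisation and their depth is unknown. Nr1d1, the gene of REV-ERBα, had a median normalised CPM (read counts scaled to a common library size) of 15.7 in control and 47.8 CPM in knockout liver ad libitum, and 19.6 and 90.8 CPM under reverse-phase feeding. Nr1d2, the gene of REV-ERBβ, had medians of 45.3 and 62.6 CPM ad libitum and 53.7 and 73.1 CPM under reverse-phase feeding. The RNA of both targeted genes was thus higher in the libraries labelled knockout. These counts cover whole transcripts and do not check the deletion, and genotype is used below as labelled. Of the cell type markers, 8 of 8 stellate markers and 9 of 12 endothelial markers were called higher in knockout liver ad libitum, and 6 of 8 and 5 of 12 under reverse-phase feeding, while edgeR called 0 of 11 Kupffer markers in either, with 0 at an unadjusted p under 0.05. Summed stellate markers ran from 181 to 418 CPM in control and 249 to 451 CPM in knockout liver ad libitum, and from 242 to 458 and 315 to 466 CPM under reverse-phase feeding. Of the 13 hepatocyte markers, 8 were called higher and 2 lower in the knockout ad libitum, with a median log2 effect of 0.20, and 3 higher and 2 lower in the reverse-phase table, with a median of 0.04. The schedule difference was called by edgeR for 0 of these 13, with 2 at an unadjusted p under 0.05. Their sum ran from 146310 to 191390 CPM in control and 129740 to 182510 CPM in knockout liver ad libitum, and from 116730 to 193420 and 103410 to 180230 CPM in the reverse-phase table. The part of these markers in the results was not tested. In liver, number 2 of the ad libitum controls at ZT 16 stood apart from its group. In endothelial cells, numbers 2 and 3 of the knockouts at ZT 22 did. In Kupffer cells, number 1 of the controls at ZT 4 and number 2 of the knockouts at ZT 22 did. Number 2 of the ad libitum controls at ZT 22 is counted with the libraries that stood apart for its ribosomal RNA, not its distance from its group. Rn45s made up 12.3% of its counts, against a median of 0.7% in that table.

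Hectd2 RNA was more abundant in knockout than in control liver at each time of day, by 2.17 to 7.12 times ad libitum and 4.73 to 23.0 times in the reverse-phase table. Over the day the 24 ad libitum controls ran from 10.3 through a median of 24.9 to 64.9 normalised CPM, and the 24 knockouts from 52.2 through 97.0 to 176 CPM. Under reverse-phase feeding the controls ran from 7.97 through 24.2 to 54.0 CPM and the knockouts from 135 through 248 to 478 CPM. The control levels of the schedules lay in the same range, and the knockout level was the one that stood higher under reverse-phase feeding, although the tables were normalised separately and a change in the number of cells of a type cannot be told apart from a change in RNA per cell.

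Ad libitum, the controls were highest early in the light phase. At ZT 1 the 3 controls had 46.2, 52.1 and 64.9 CPM of Hectd2 and the 3 knockouts 96.8, 126 and 131 CPM. At ZT 4 the controls had 41.7, 57.1 and 61.9 CPM and the knockouts 96.4, 118 and 134 CPM. The groups did not overlap, and the knockout mean was 2.17 times the control mean at both times. At ZT 13 the controls were down to 10.3, 13.7 and 19.9 CPM, and the knockouts had 60.9, 75.3 and 97.1 CPM. At ZT 19 the controls had 12.4, 14.1 and 16.1 CPM and the knockouts 74.6, 93.2 and 136 CPM. This was the largest ratio of the day, 7.12, and it arose with the controls near their lowest level. At ZT 7 the knockout spread was widest in relative terms, with 52.2, 87.1 and 113 CPM against 26.6, 36.7 and 43.2 CPM in controls. At ZT 22 the knockouts reached 103, 137 and 176 CPM and the controls 17.8, 27.3 and 35.2 CPM. Every knockout library was above every control library of its time at 8 of 8 times.

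Under reverse-phase feeding the order of the times turned round. At ZT 4 the controls were lowest, with 7.97, 9.03 and 11.5 CPM, and the knockouts had 185, 200 and 220 CPM. At ZT 7 the controls had 9.69, 12.5 and 16.7 CPM and the knockouts 273, 275 and 346 CPM, a ratio of means of 23.0 and the largest in either schedule. The controls peaked at ZT 19, with 38.4, 42.1 and 48.5 CPM, against 163, 178 and 269 CPM in the knockouts. The ratio of means was there at its lowest, 4.73. The highest single library was a knockout at ZT 13, where the 3 had 236, 330 and 478 CPM against 24.7, 29.9 and 41.6 CPM in controls. At ZT 22 one control library, with 54.0 CPM, lay well above the other controls at 23.8 and 25.6 CPM, and below the knockouts at 135, 210 and 261 CPM. The groups were again apart at 8 of 8 times. Such an order at all times, with the knockout above, held for 0.399% of 12534 genes in the ad libitum table and 0.55% of 13810 in the reverse-phase table.

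The antisense transcript 1500017E21Rik followed Hectd2 closely. Its ad libitum controls ran from 13.8 through a median of 35.5 to 98.4 CPM and its knockouts from 74.99 through 141 to 252 CPM. In the reverse-phase table controls ran from 9.49 through 28.1 to 66.5 CPM and the knockouts from 165 through 296 to 547 CPM. The genotypes did not overlap at any of 8 times under either schedule. At ZT 7 under reverse-phase feeding the controls had 10.1, 13.2 and 18.0 CPM and the knockouts 310, 339 and 432 CPM, which gave the largest ratio of means at any time among the 4 genes, 26.2. At ZT 19 ad libitum, where its ratio was largest for that schedule at 7.91, the controls had 14.4, 21.2 and 21.6 CPM and the knockouts 104, 141 and 207 CPM.

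The count of 1500017E21Rik divided by that of Hectd2 in the same library stayed within a narrow band. Its median was 1.34 in controls and 1.44 in knockouts ad libitum, and 1.15 and 1.21 under reverse-phase feeding, with a range over all liver libraries of 1.05 to 1.61. Of the antisense model, 64.5% lies within the exons of the longer Hectd2 model and 31.0% within those of the shorter. The part of the shared reads in this likeness was not tested. Per kb of transcript the value of 1500017E21Rik was the higher of the pair, at 15.4 CPM per kb against 6.36 CPM per kb in ad libitum controls. The shared reads cannot be assigned to a strand, so these values do not show which RNA was the more abundant.

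**Figure D2:**
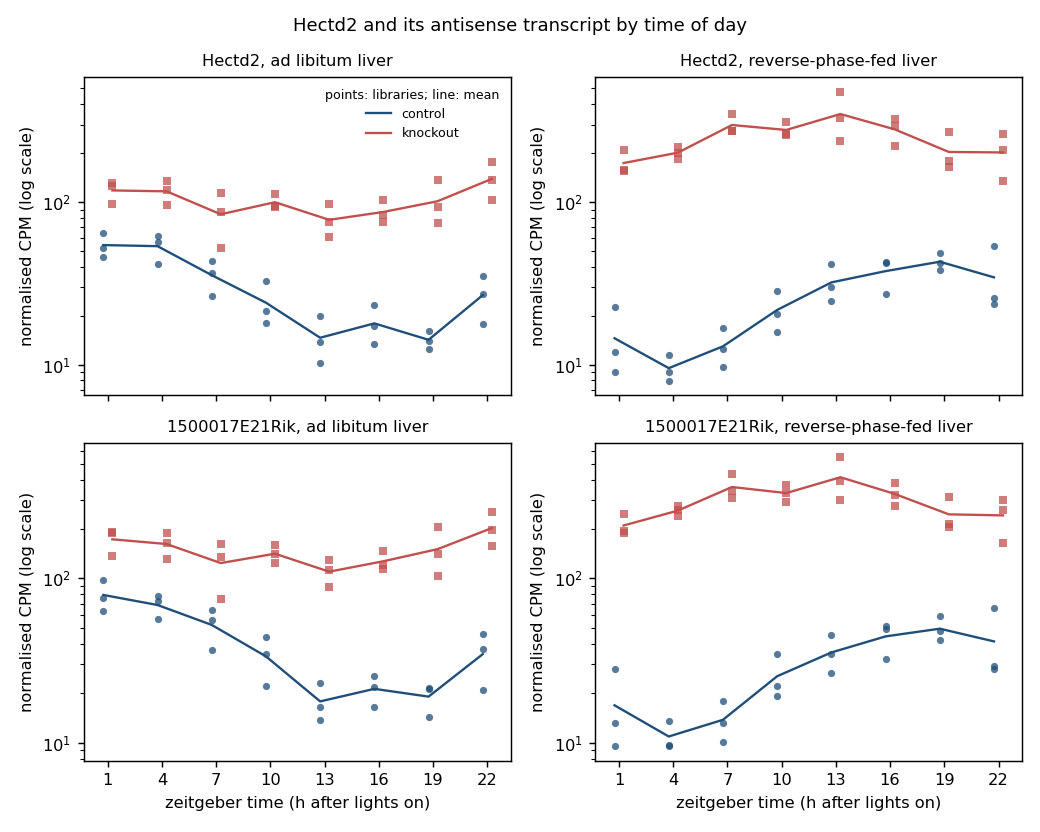
Normalised CPM (log scale) of Hectd2 (upper panels) and 1500017E21Rik (lower panels) by zeitgeber time under ad libitum (left) and reverse-phase feeding (right). Points are libraries, 3 per genotype and time, and lines join means. Knockout squares lie above control circles at all 8 times in each panel, and the control curve falls from ZT 1 to ZT 13 on the left and rises from ZT 4 to ZT 19 on the right.

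Rdh18-ps stood at different levels in the liver tables, and its proportional difference between genotypes was larger in the table where it was low. Ad libitum, the controls ran from 21.5 through a median of 28.7 to 37.9 CPM and the knockouts from 19.9 through 27.0 to 33.6 CPM. In the reverse-phase table controls ran from 2.40 through 4.17 to 7.05 CPM and the knockouts from 0.596 through 2.16 to 3.28 CPM. Ad libitum the genotypes overlapped at 7 of 8 times, the exception being ZT 13, when the controls had 25.5, 26.7 and 37.6 CPM and the knockouts 19.9, 22.4 and 23.2 CPM. With reverse-phase feeding the knockouts were below the controls, without overlap, at 7 of 8 times. The share of all genes with such an order at 7 of 8 times was not counted, so how unusual it is remains unknown.

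The largest reverse-phase gap of Rdh18-ps in CPM was at ZT 4, with 6.03, 6.52 and 7.05 CPM in controls and 2.35, 2.47 and 2.81 CPM in knockouts. The lowest ratio of means, 0.342, was at ZT 13, with 4.14, 4.92 and 5.74 CPM in controls and 0.945, 1.70 and 2.43 CPM in knockouts. The overlap at ZT 22 came from controls at 2.40, 2.77 and 4.51 CPM and knockouts at 2.06, 3.03 and 3.20 CPM. One knockout library at ZT 1, with 0.596 CPM, lay far below the other knockouts of that time at 2.34 and 2.60 CPM.

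Control Rdh18-ps was lower in the reverse-phase table than in the ad libitum table by 2.76 on the log2 scale of mean CPM. Of 12488 genes compared, 0.312% had a difference as low or lower, and the median over them was -0.02. The tables were deposited separately and differ in depth, so the feeding schedule cannot be told apart from other differences between the tables. Measured as a difference in CPM and not as a ratio, the knockout effect was -2.55 ± 1.07 CPM (SE) ad libitum and -2.29 ± 0.179 CPM under reverse-phase feeding. On that scale the difference between schedules was 0.261 ± 1.08 CPM, the opposite sign to that on the log scale and within its error. Relatives that share sequence with Rdh18-ps went both ways between the tables. Rdh1, which holds 19.7% of its 50-base words, had a control mean of 9.52 ± 2.16 CPM (SD, n = 24) ad libitum and 0.562 ± 0.193 CPM in the reverse-phase table. Rdh19, which holds 19.4%, had 1.11 ± 0.381 and 0.0931 ± 0.0653 CPM. Rdh16, which holds 41.7%, had 107 ± 20.7 and 162 ± 31.0 CPM, and Rdh7, which holds 20.2%, had 1403 ± 131 and 1416 ± 125 CPM. Rdh1 and Rdh19 were thus lower in the reverse-phase table, as Rdh18-ps was, and the part of shared reads in this was not tested.

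Mbl2 moved in opposite directions under the schedules. Ad libitum, its controls ran from 288 through a median of 365 to 472 CPM and its knockouts from 305 through 479 to 755 CPM. Under reverse-phase feeding the controls ran from 312 through 485 to 642 CPM and the knockouts from 241 through 409 to 505 CPM. The mean of the knockouts was the higher at 8 of 8 times ad libitum and the lower at 8 of 8 under reverse-phase feeding. The ratios were modest and ranged from 1.09 to 1.78 and from 0.712 to 0.946. The share of all genes with such an order of means was not counted.

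The libraries of the genotypes mostly overlapped for Mbl2. Ad libitum they were apart at 3 of 8 times, most widely at ZT 1, with 315, 319 and 345 CPM in controls and 539, 558 and 644 CPM in knockouts. At ZT 10 the knockouts had 358, 410 and 755 CPM, so that 1 library carried most of the higher mean over controls at 288, 363 and 459 CPM. With reverse-phase feeding the genotypes overlapped at 8 of 8 times. How many of all genes were apart at as many times was not counted. The lowest ratio was at ZT 10, with 395, 592 and 599 CPM in controls and 311, 319 and 499 CPM in knockouts. At ZT 1 they were closest, with 312, 358 and 491 CPM against 339, 349 and 409 CPM. Mbl2 had by far the highest value of the 4 genes per kb, at 349 CPM per kb in ad libitum controls. The values of 1500017E21Rik, Rdh18-ps and Hectd2 were 15.4, 8.12 and 6.36 CPM per kb. Those genes share sequence with others, so the order among them is uncertain.

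**Figure D3:**
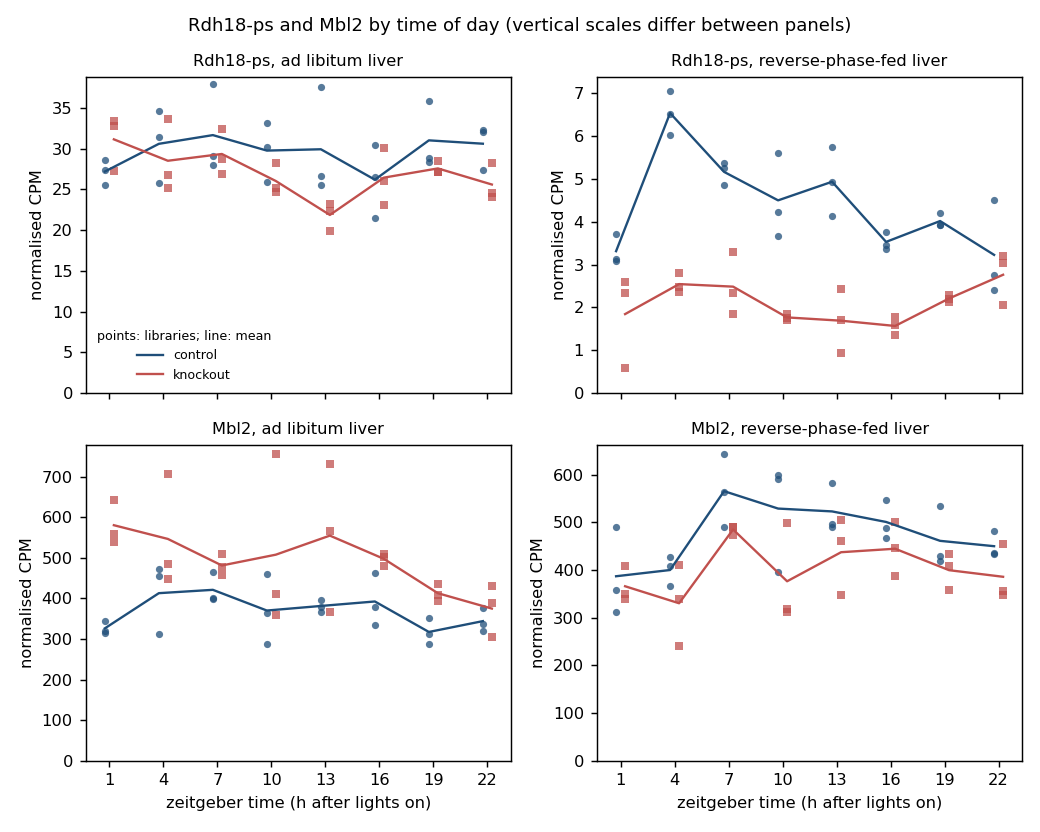
Normalised CPM (linear scale from 0, differing between panels) of Rdh18-ps (upper) and Mbl2 (lower) by zeitgeber time under ad libitum (left) and reverse-phase feeding (right), with 3 libraries per genotype and time as points and means as lines. Rdh18-ps lies between 19.9 and 37.9 CPM on the left and at or below 7.05 CPM on the right, and the Mbl2 knockout line is above the control line on the left and below it on the right.

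In the fits the knockout effect is the mean log2 level over the day in knockouts less that in controls. For Hectd2 it was 1.92 ± 0.11 (SE) ad libitum and 3.40 ± 0.12 with reverse-phase feeding, or 3.79-fold and 10.6-fold. For 1500017E21Rik it was 2.05 ± 0.11 and 3.48 ± 0.12. For Rdh18-ps it was -0.13 ± 0.05 and -1.05 ± 0.11, and for Mbl2 0.42 ± 0.08 and -0.24 ± 0.07. The differences between schedules were 1.49 ± 0.15 for Hectd2, 1.43 ± 0.16 for 1500017E21Rik, -0.91 ± 0.11 for Rdh18-ps and -0.65 ± 0.11 for Mbl2. On the log2 scale the effect of Mbl2 thus had opposite signs in the tables, and those of the other genes were farther from 0 in the reverse-phase table. All 4 genes were among the 0.207% of 13535 genes with an edgeR adjusted p under 0.05 for this difference. They were picked by name for that property, so this is no independent support. The knockout effect itself was called for 27.2% of all genes in the ad libitum table and 26.9% in the reverse-phase table. On the linear scale the Hectd2 difference was 72.8 ± 5.13 CPM ad libitum and 222 ± 12.3 CPM under reverse-phase feeding, and that of Mbl2 124 ± 26.1 and -73.8 ± 19.5 CPM. For Rdh18-ps the linear difference was no larger in the reverse-phase table, at -2.29 ± 0.179 against -2.55 ± 1.07 CPM.

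**Figure D4:**
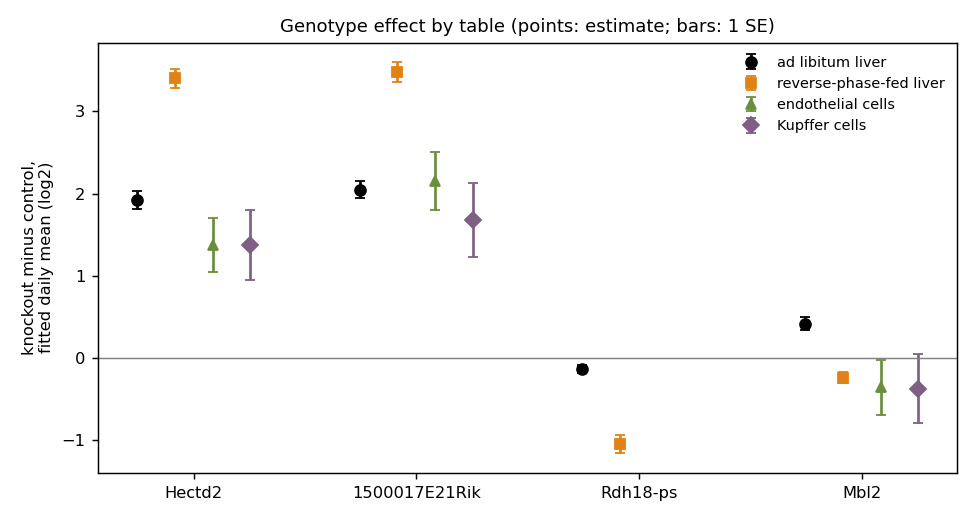
Knockout effect on log2 expression, as the fitted mean over the day in knockouts less that in controls, with 1 SE, for each gene in ad libitum liver, reverse-phase-fed liver, endothelial cells and Kupffer cells. Reverse-phase points lie above the ad libitum points for Hectd2 and 1500017E21Rik and below them for Rdh18-ps and Mbl2. Rdh18-ps has no point for the isolated cells because it did not pass the filter on low values there.

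The genes were chosen for the schedule difference in their knockout effect, and whether the choice also used their daily rhythm is not stated. Rhythm was tested with edgeR, as a sine wave with a period of 24 h, with p adjusted over all genes of a fit. The same liver libraries served for the choice, so the p-values for rhythm differences between genotypes or schedules are a description. In ad libitum controls Hectd2 and 1500017E21Rik were rhythmic and Rdh18-ps and Mbl2 were not called, 2 of 4 genes against 48.1% of 12534 genes tested. Hectd2 and 1500017E21Rik share exons, so they are not independent cases in this count or in those that follow. Hectd2 peaked at ZT 3.35 ± 0.42 h (SE) with a 3.89-fold range between the highest and lowest point of the fitted curve (adjusted p = 2.8e-09), and 1500017E21Rik at ZT 3.44 ± 0.38 h with a 4.46-fold range (adjusted p = 3.9e-10). The range of Rdh18-ps was 1.06-fold (adjusted p = 0.80) and that of Mbl2 1.23-fold (adjusted p = 0.25).

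In the ad libitum knockouts the swing of Hectd2 was shallower. Its range was 1.55-fold, with a peak at ZT 0.11 ± 1.17 h (adjusted p = 0.022), and that of 1500017E21Rik 1.58-fold with a peak at ZT 23.8 ± 1.15 h (adjusted p = 0.020), 2 of 4 genes against 44.1% of those tested. The calls rested on single libraries. Without the library number 2 of the ZT 22 knockouts the adjusted p was 0.066 for Hectd2 and 0.060 for 1500017E21Rik, and without number 2 of the ZT 13 knockouts it was 0.055 for Hectd2. Rdh18-ps had a 1.23-fold range (adjusted p = 0.060), which passed the threshold with DESeq2 (adjusted p = 0.0497) and, at the lowest, without number 3 of the ZT 16 knockouts (adjusted p = 0.0235), and Mbl2 a 1.24-fold range (adjusted p = 0.24). The rhythm itself differed between genotypes for Hectd2 (adjusted p = 0.0011) and 1500017E21Rik (adjusted p = 0.00017), which are 2 of 4 genes against 3.31% over all genes. Without all libraries numbered 2 the Hectd2 call was lost (adjusted p = 0.0536). The curve of their knockout over control ratio had a 3.05-fold and a 3.60-fold range. Rdh18-ps (adjusted p = 0.67) and Mbl2 (adjusted p = 0.99) were not called.

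Under reverse-phase feeding the control peaks of the Hectd2 pair lay on the other side of the day. Hectd2 peaked at ZT 17.05 ± 0.42 h with a 4.18-fold range (adjusted p = 6.0e-09) and 1500017E21Rik at ZT 17.2 ± 0.42 h with a 4.37-fold range (adjusted p = 6.9e-09). The Hectd2 peak was thus 10.3 ± 0.59 h earlier, or 13.7 h later, than ad libitum. Rdh18-ps peaked at ZT 7.55 ± 1.19 h with a 1.60-fold range (adjusted p = 0.027), and Mbl2 at ZT 11.9 ± 1.22 h with a 1.34-fold range (adjusted p = 0.033). All 4 were therefore called here, against 41.2% of 13810 genes tested. The Rdh18-ps call was lost without number 3 of the ZT 22 controls (adjusted p = 0.052). The Mbl2 call was lost without number 2 or 3 of the ZT 1 controls, number 1 of those at ZT 10 or number 1 of those at ZT 13, with adjusted p of 0.061, 0.076, 0.064 and 0.059.

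In the reverse-phase knockouts Hectd2 peaked at ZT 11.8 ± 0.92 h with a 1.84-fold range (adjusted p = 0.0038) and 1500017E21Rik at ZT 11.5 ± 1.0 h with a 1.79-fold range (adjusted p = 0.0083), 2 of 4 genes against 36.8% over all genes. Rdh18-ps had a 1.501-fold range (adjusted p = 0.11) and Mbl2 a 1.20-fold range (adjusted p = 0.26). Without the low ZT 1 knockout library, number 1, the range of Rdh18-ps was 1.73-fold (adjusted p = 0.0060). Without all libraries numbered 1 the calls of Hectd2 (adjusted p = 0.141) and 1500017E21Rik (adjusted p = 0.21) were lost, and without all numbered 3 that of 1500017E21Rik (adjusted p = 0.0566). The rhythm differed between genotypes for Hectd2 (adjusted p = 4.8e-05) and 1500017E21Rik (adjusted p = 2.6e-05), against 1.48% over all genes, with ratio curves of 4.24-fold and 4.65-fold range. Without all libraries numbered 3 the Hectd2 call was lost (adjusted p = 0.0597). It was not called for Rdh18-ps (adjusted p = 0.36) or Mbl2 (adjusted p = 0.97).

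Between schedules the control rhythm differed for Hectd2 (adjusted p = 9.1e-18), 1500017E21Rik (adjusted p = 1.4e-18) and Rdh18-ps (adjusted p = 0.042), 3 of 4 genes against 53.6% of 13535 tested. The Rdh18-ps call did not hold with DESeq2 size factors (adjusted p = 0.052), without a filter (adjusted p = 0.081), with a mean of at least 1 CPM (adjusted p = 0.052) or without the libraries that stood apart (adjusted p = 0.091). Mbl2 was not called (adjusted p = 0.32). In the knockouts the rhythm differed for Hectd2 (adjusted p = 4.2e-05) and 1500017E21Rik (adjusted p = 8.3e-05), against 49% over all genes, and was not called for Rdh18-ps (adjusted p = 0.60) or Mbl2 (adjusted p = 0.26). A rhythm that differed between schedules was thus found in about as large a share of all genes. The way in which genotype changed the rhythm also differed between schedules for Hectd2 (edgeR adjusted p = 5.3e-09) and 1500017E21Rik (adjusted p = 3.2e-10). These were 2 of 4 genes, against 5.38% over all genes, but they share exons and are not independent cases. Rdh18-ps (adjusted p = 0.42) and Mbl2 (adjusted p = 0.95) were not called. The genes were picked on these libraries for a schedule difference in their knockout effect, so these values are a description.

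Genes around the members were examined because neighbours can share reads. Ppp1r3c, which encodes a subunit that brings protein phosphatase 1 to glycogen, lies 42252 bases beyond 1500017E21Rik. It rose in the knockout by 0.95 ± 0.17 (SE, log2) ad libitum and 1.04 ± 0.11 with reverse-phase feeding (edgeR adjusted p = 3.4e-05 and 2.5e-10), and its schedule difference of 0.09 ± 0.21 was not called (adjusted p = 0.99). Its control rhythm, like that of Hectd2, differed between schedules, with a peak at ZT 22.3 ad libitum and ZT 10.3 under reverse-phase feeding (adjusted p = 3.8e-12). Pcgf5, a Polycomb repressive complex subunit 98435 bases before Hectd2, rose by 0.40 ± 0.07 and 0.45 ± 0.07, with a schedule difference of 0.06 ± 0.10 (adjusted p = 0.99). Gldc, the glycine decarboxylase gene beside Mbl2, rose by 0.80 ± 0.05 and 0.91 ± 0.06, with a schedule difference of 0.12 ± 0.08 (adjusted p = 0.87).

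Around Rdh18-ps the family members went in both directions. Rdh9, a relative active on steroids and retinol, rose by 0.81 ± 0.09 ad libitum and 1.21 ± 0.08 with reverse-phase feeding, and Rdh1 by 0.61 ± 0.09 and 0.59 ± 0.15. Rdh16 fell by 0.44 ± 0.08 and 0.54 ± 0.08, and the values of Rdh7 were -0.07 ± 0.03 (adjusted p = 0.042) and -0.09 ± 0.04 (adjusted p = 0.11). Sdr9c7 rose by 0.41 ± 0.08 and 0.56 ± 0.11, and BC089597 by 0.22 ± 0.05 and 0.27 ± 0.09. Rdh19, the nearest neighbour, had an effect of 0.21 ± 0.14 ad libitum (adjusted p = 0.28) and was too low to be tested in the reverse-phase table alone. None of these 7 was called for a difference between schedules, with the smallest adjusted p that of Rdh9, 0.14. The schedule difference of Rdh19 was -0.72 ± 0.35 (adjusted p = 0.68), of the same sign as that of Rdh18-ps. The fall of Rdh18-ps under reverse-phase feeding therefore had the direction of Rdh16, and not that of Rdh9, Rdh1, Sdr9c7 or BC089597.

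Some of the other genes in the members' pathways were called for genotype in the edgeR fits, beside 27.2% and 26.9% over all genes. The schedule difference was called for so few genes, 0.207% of all tested, that its counts of 0 in the lists below lie near that background. In the lectin pathway of complement, which Mbl2 starts, 4 of 13 tested genes other than Mbl2 were higher and 2 lower in the knockout ad libitum, and 3 higher and 2 lower under reverse-phase feeding. The median log2 effect was 0.05 in both, against -0.004 and -0.006 over all genes. Colec11, a collectin that also activates the pathway, rose by 0.41 ± 0.08 and 0.28 ± 0.07. It is also among the 8 stellate markers above, whose median log2 effects were 0.44 and 0.31. The part of those markers in its rise was not tested. The protease gene Masp2 rose by 0.10 ± 0.03 and 0.11 ± 0.03, while the scavenger receptor Colec12 fell by 0.39 ± 0.04 and 0.55 ± 0.07. The schedule difference was called by edgeR for 0 of 13, with 1 at an unadjusted p under 0.05.

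Among retinol dehydrogenases and genes of retinoid handling, 10 of 27 tested genes were higher and 8 lower under each schedule, with median log2 effects of 0.06 and 0.17. Hsd17b6, a relative that oxidises androgens and retinol, rose by 1.26 ± 0.13 and 1.62 ± 0.10, Dhrs7 fell by 0.90 ± 0.08 and 1.13 ± 0.08, and Aldh1a1, which makes retinoic acid, fell by 0.63 ± 0.06 and 0.54 ± 0.09. The schedule difference was called by edgeR for 0 of 28, with 4 at an unadjusted p under 0.05. Of the 23 other HECT ubiquitin ligases, 4 were higher and 6 lower ad libitum, and 2 higher and 6 lower under reverse-phase feeding, with medians of -0.01 and -0.05. Nedd4l rose by 0.33 ± 0.06 and 0.29 ± 0.06 and Smurf1 fell by 0.33 ± 0.07 and 0.30 ± 0.07. The schedule difference was called by edgeR for 0 of 23, with 1 at an unadjusted p under 0.05. Of the glycogen-targeting phosphatase subunits, listed because Ppp1r3c is near Hectd2, 2 of 3 tested were higher ad libitum, and 1 of 5 was higher and 1 lower under reverse-phase feeding, the latter Ppp1r3g, which fell by 3.41 ± 0.49. The schedule difference was called by edgeR for 0 of 5, with 1 at an unadjusted p under 0.05. For these 4 lists the schedule difference had medians of -0.03, 0.01, -0.03 and -0.02, against -0.004 over all genes.

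Over the 32 liver group means of log2(CPM + 1), centred within each schedule, the expression pattern most like that of Hectd2 was that of 1500017E21Rik (Pearson r = 0.999), with which it shares exons, then Raet1d (r = 0.964) and Raet1a (r = 0.964), ligands of an activating receptor on natural killer cells. Raet1 genes are near-identical copies whose counts are uncertain. Raet1d had an effect of 1.28 ad libitum and 2.09 with reverse-phase feeding on the log2 scale. Nearest to Rdh18-ps were Cyp2a22 (r = 0.842), H2-Q1 (r = 0.768) and Slc22a27 (r = 0.766), whose effects were -0.24, -0.38 and -0.65 ad libitum and -1.45, -1.73 and -1.53 under reverse-phase feeding. Nearest to Mbl2 were Rgn (r = 0.783), Cyb5r3 (r = 0.746) and Cstb (r = 0.736). Their effects were 0.36, 0.10 and 0.15 ad libitum and 0.06, -0.16 and -0.03 under reverse-phase feeding. Likeness was ranked among 12487 genes. The points share genotype and time of day, so the correlations are a description.

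In isolated endothelial cells the 4 genes were far lower than in liver, and 1500017E21Rik was higher in the knockout. Values are the deposited quantile-normalised signal. The 12 controls ran from 0 through a median of 3.17 to 8.69 and the 12 knockouts from 5.61 through 17.5 to 50.6. At ZT 4 the controls had 2.71, 7.80 and 8.69 and the knockouts 22.02, 27.8 and 42.0. At ZT 22 the controls had 0, 3.15 and 3.17 and the knockouts 5.61, 7.58 and 50.6. The genotypes did not overlap at any of 4 times, an order that 0.024% of 12523 tested genes showed in this direction. On the log2(value + 1) scale the difference was 2.15 ± 0.36 (SE; limma adjusted p = 0.019), and 1500017E21Rik was 1 of 4 genes called in that table, 0.0319% of those tested. The call was lost without any of 4 single libraries, number 2 of the ZT 10 controls or number 2 at ZT 4, number 1 at ZT 10 and number 3 at ZT 16 of the knockouts (adjusted p of 0.055, 0.056, 0.057 and 0.054), with values between 2.08 and 2.13.

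Hectd2 in endothelial cells ran from 0 through 6.06 to 9.90 in controls and from 5.65 through 14.8 to 41.6 in knockouts, with a difference of 1.37 ± 0.33 that was not called (adjusted p = 0.26). Mbl2 ran from 8.43 through 29.4 to 75.8 in controls and from 8.38 through 18.9 to 56.4 in knockouts, with a difference of -0.36 ± 0.33 (adjusted p = 0.99). Rdh18-ps ran from 0 to 4.31 and did not pass the filter. In Kupffer cells 1500017E21Rik had a difference of 1.68 ± 0.45 (adjusted p = 0.90), Hectd2 of 1.38 ± 0.43 (adjusted p = 0.9997) and Mbl2 of -0.38 ± 0.42 (adjusted p = 0.9997), so 0 of 3 tested genes were called, against 0.0244% of 12270 genes. At an unadjusted limma p under 0.05, 1500017E21Rik and Hectd2 passed, 2 of 3 genes against 3.98% of all genes. These genes share exons and are not independent cases. Rdh18-ps was at 0 in 19 of 24 Kupffer libraries. No rhythm of the 3 tested genes was called in either genotype of either cell type, where limma called 6.13% and 13.2% of all genes in control and knockout endothelial cells and 1.96% and 1.81% in Kupffer cells. The smallest adjusted p of these genes was 0.32.

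Hepatocyte RNA was present in these libraries, and it moved together in endothelial and Kupffer libraries of the same group and number. The hepatocyte score defined below had a Pearson r of 0.942 between them as deviations from group means (24 pairs), and Mbl2, 1500017E21Rik and Hectd2 had 0.887, 0.569 and 0.548. The labels do not say that these pairs share an animal, and the endothelial and Kupffer results are not independent of each other. All 13 hepatocyte markers were above 0, and their summed signal ran from 12001 to 61064 in endothelial controls, 9606 to 125610 in endothelial knockouts, 12616 to 73130 in Kupffer controls and 12960 to 80423 in Kupffer knockouts. The hepatocyte score is the mean of log2(value + 1) over these markers. It was highest in number 2 of the ZT 22 knockouts in both cell types, at 11.0 and 10.8. This library also held the highest 1500017E21Rik value of its table, 50.6 and 66.6. Pearson r of 1500017E21Rik with the score was 0.40 in endothelial controls and 0.59 in knockouts, and 0.62 and 0.81 in Kupffer cells. Without the 2 libraries farthest from the median score it was 0.33 and 0.28, and 0.81 and 0.55. For Mbl2, over all libraries, r was 0.92 and 0.90 in endothelial cells, and 0.94 in both genotypes of Kupffer cells. As a percentage of its share of ad libitum liver RNA in the same genotype, 1500017E21Rik stood at 2.65% in endothelial controls and 3.43% in knockouts, Hectd2 at 5.18% and 4.14%, and Mbl2 at 2.36% and 1.33%. The hepatocyte markers in endothelial controls ran from 0.899% (Apoc3) to 11.3% (Trf), and in endothelial knockouts from 1.01% to 10.8%, ranges that hold the values of all 3 genes in that genotype. With the hepatocyte score as a covariate, an alternative added after seeing the data, the 1500017E21Rik difference was 2.12 ± 0.33 in endothelial cells (adjusted p = 0.00088) and 1.63 ± 0.32 in Kupffer cells (adjusted p = 0.015), and that of Hectd2 1.34 ± 0.30 (adjusted p = 0.045) and 1.33 ± 0.30 (adjusted p = 0.048). Without the libraries that stood apart the 1500017E21Rik difference in endothelial cells was 2.02 ± 0.35 (adjusted p = 0.042). The mean score in controls and knockouts was 9.025 and 9.113 in endothelial cells, and 8.867 and 8.931 in Kupffer cells. With the score so alike in the genotypes, the covariate cannot remove a genotype difference that hepatocyte RNA itself carries. In which cells of these preparations the RNA was made was not tested.

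**Figure D5:**
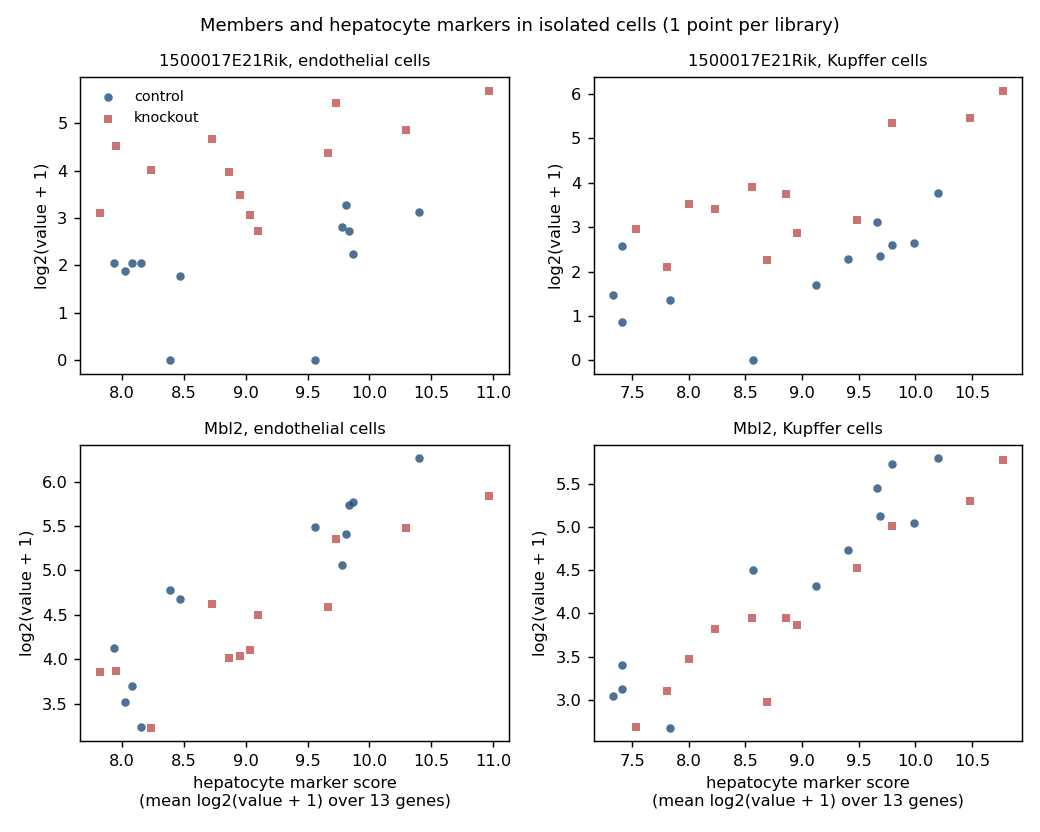
log2(value + 1) of 1500017E21Rik (upper) and Mbl2 (lower) in endothelial (left) and Kupffer libraries (right) against the hepatocyte marker score, the mean of log2(value + 1) over 13 genes, with 1 point per library. Mbl2 rises with the score in both genotypes, and knockout squares of 1500017E21Rik lie above most control circles at a like score.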

How the data were processed

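RNA was extracted with Trizol and made into TruSeq libraries, per the labels' protocols, from whole liver (48 libraries per feeding schedule) and from isolated endothelial and Kupffer cells (24 each). STAR, HOMER and the build mm9 are named per the submitters' processing notes. Versions, annotation and strand setting are not stated there. The liver tables hold expected counts per transcript as the authors deposited them, in multiples of 0.5, and were rounded to whole numbers. The endothelial and Kupffer tables hold a quantile-normalised signal as the authors deposited it, in which the 24 columns of a table share 1 set of values, so depth cannot be recovered. Columns without a sample numbered 0.

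For each symbol the transcript row with the largest mean was kept. Liver counts were tested with edgeR 4.0.16 (R 4.3.3), by the quasi-likelihood test with TMM scaling and filterByExpr, each table on its own and both jointly for differences between schedules. Isolated cells were tested with limma 3.58.1 on log2(value + 1), for genes with at least 10 in 3 libraries. Models held genotype and, for each genotype, a cosine and a sine term with a period of 24 h. P-values were adjusted by Benjamini-Hochberg over all genes tested, with a threshold of 0.05. Levels are TMM-normalised CPM. Fold changes of the isolated cells are on the log2(value + 1) scale, which understates low genes. The fits were tested on simulated data, with 100 changed genes per size. A rhythm of 0.5 or 1 log2 from lowest to highest, in ad libitum controls, was called in 22% and 70%. The rhythm difference between genotypes was called in 10% and 52%. A schedule difference in knockout effect of 0.5 or 1 log2 was called in 67% and 87%. An endothelial knockout effect of 1 or 2 log2 was called in 93% and 99%. Small rhythms that were not called are therefore not shown to be absent. Alternatives covered DESeq2 1.42.0, scaling, filters, pseudocount, time as a factor, 12 h terms, a replicate block and left-out libraries.

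Sequence overlap used the GENCODE models of the deposited transcripts, except for Rdh18-ps. There the longest GENCODE transcript of that gene name was used, with 953 bases against 3644 in the deposited one. Named genes are the 4 members, Nr1d1 and Nr1d2, genes within 100 kb of a member, the 3 genes most like each member, and up to 3 called genes per direction of each list. Apoc3 and Trf were named after their values were seen, as the ends of a range, and Cyp2a4 as the gene beside the members in rank. The members and lists were chosen with earlier results of these data known.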

Additional observations from a re-analysis of the deposited data

Results flagged for a closer look

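The effect of the knockout on the daily rhythm of Hectd2 differed between the feeding schedules by a test of the difference itself (edgeR adjusted p = 5.3e-09). The curve of that difference had an 11.6-fold range from its lowest to its highest point. The same test gave a 15.0-fold range for 1500017E21Rik (adjusted p = 3.2e-10), which shares exons with Hectd2 and is not an independent case. The test was passed by 5.38% of 13535 genes. Both genes were picked, on these same libraries, for a knockout effect that depends on feeding. Their p-values are therefore a description and not independent support. The liver groups hold 3 libraries each, too few for a test of a single value against its own group.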

How the results depend on the processing

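The knockout effects of the 4 genes in liver kept their direction under every log-scale alternative run. On the linear scale the Rdh18-ps difference between schedules turned to 0.261 ± 1.08 CPM. The 28 genes called for the schedule difference became 51 with time as a factor, 66 with DESeq2, and 6 to 23 without each replicate number in turn. Leaving out libraries or replicate numbers gave 2151 to 3503 genes for the ad libitum knockout effect (3407 with all) and 2410 to 3807 for the reverse-phase one (3713 with all). Of the 4 genes, it gave 0 to 3 called for rhythm in ad libitum knockouts, 2 to 4 in reverse-phase controls and 1 to 3 in reverse-phase knockouts, 1 to 2 for the rhythm difference between genotypes under either schedule, 2 to 2 for that between schedules in controls, and 0 to 1 for the knockout effect in endothelial cells. With the hepatocyte score as a covariate, 2 genes were called in endothelial and 2 in Kupffer cells. The cause of these changes was not tested. Within a table, same-numbered libraries were little alike. Their deviations had a mean correlation of 0.0106 to 0.0631, against -0.0053 to -0.0319 for libraries of other numbers. The same-number mean was the higher in each of the 4 tables. Of 3 numbers, 20 of 48, 22 of 48, 9 of 24 and 9 of 24 libraries were most like their own. Weak pairing within a table is thus not excluded. Between the endothelial and Kupffer tables, same-numbered libraries did move together (hepatocyte score, r = 0.942). With a replicate block 3381, 3735 and 28 genes were called for the ad libitum, reverse-phase and schedule-difference effects, and 3 of the 4 genes for rhythm in ad libitum knockouts, where Rdh18-ps was added (adjusted p = 0.046). Of the results for single genes under all alternatives, 2587 were unchanged, 15 passed the threshold anew, 33 no longer passed it and 1 changed sign. For the liver knockout effects and their schedule difference, unchanged means the same sign and, on the log scale, a shift smaller than the SD within groups. The calls of those effects were not compared. For the other results unchanged means the same call. Depth was not varied, so its part in what was not called was not tested.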
